A study of Mus musculus with 12 samples.

Results

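Alveolar type 2 cells of the mouse lung were described through 10 genes chosen by name: the surfactant proteins Sftpa1, Sftpb, Sftpc and Sftpd, the lamellar body genes Abca3 and Lamp3, the protease Napsa, the lipid enzyme Lpcat1, the phosphate transporter Slc34a2 and the transcription factor Etv5. Each gene was read from the array's probe sets that carry its symbol, or an older synonym, and no other. Where a gene has several probe sets, the one brightest on average over the 12 arrays, on the log2 scale, stands for it. By this rule 9 of the 10 genes were measured, among 11859 genes tested. The only probe set for Lamp3, a lamellar body membrane protein, also carries the symbol Ppid, so no value is given for Lamp3. The 9 genes have 20 probe sets of their own, of which 18 passed the filter on low signals, and none of the 9 chosen probe sets ranked below 4167 of 45037 on any array, so that no group alone carried a gene over the filter.

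Type 2 cells are the cuboidal cells of the alveolus that make pulmonary surfactant and renew the alveolar epithelium. Surfactant is a mixture of phospholipids and proteins that lowers surface tension in the air spaces. Its lipids and the hydrophobic proteins SP-B and SP-C are packed into lamellar bodies and secreted from there, whereas SP-A and SP-D are collectins, soluble lectins that bind microbes and help clear them. In sepsis the lung can be injured from a distance, and surfactant function is often impaired in the injured lung.

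Total RNA of whole mouse lung was hybridised to an Affymetrix expression array, with 3 arrays in each of 4 groups. The mice were 8 to 10 weeks old and were sampled 8 h after a sham operation or after cecal ligation and puncture (CLP), in which gut contents leak into the abdomen and cause sepsis. The groups were wild type after sham, wild type after CLP, PPTA knockout after sham and PPTA knockout after CLP. PPTA is a former name for the gene Tac1, from which the neuropeptide substance P is made, and the comparisons ask how the septic lung differs without it. The strain is given as Balb/c for the wild type and the knockout's is not stated. Strain and genotype therefore cannot be told apart. The sources used here do not say whether the 3 samples of a group came from separate animals, so the p-values rest on a spread between samples that could be technical.

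The Tac1 signal goes against the labels. The brighter Tac1 probe set stood at 337 to 530.3 on the 6 arrays labelled knockout and at 2.80 to 16.1 on those of wild type, and the other read 1.26 to 16.0 over all 12. The sources used here do not say how these probe sets lie relative to the deletion. The term "knockout-labelled" is therefore used throughout, and each direction between genotypes rests on that label. Array 3 of knockout-labelled sham stood apart. Correlations between arrays over the probe sets tested were 0.937 to 0.981 in its group, against 0.983 to 0.985 in wild-type sham. The summed signal of 9 alveolar macrophage markers was 9794 on that array, against 2614 and 3109 on the other arrays of its group, 2379 to 2811 on wild-type arrays and 9364 to 10229 on knockout-labelled CLP arrays. The knockout-labelled CLP group was also looser than wild type, with correlations between its arrays of 0.952 to 0.973, against 0.985 in wild-type CLP. The comparisons share arrays, so their values for a gene are given side by side.

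The defining markers of type 2 cells were bright on every array. The chosen probe sets of Sftpc and Sftpa1 ranked 7 and 18 by mean signal among all 45037 probe sets. The mean signals of Sftpd, Slc34a2 and Sftpb ranked 103, 155 and 164, those of Lpcat1, Napsa and Abca3 545, 646 and 1144, and that of Etv5 2909. The summed signal of 22 other type 2 markers ran from 43387 to 44798 in wild-type sham, 45315 to 47768 in wild-type CLP, and, in knockout-labelled lung, 44319 to 47682 after sham and 46872 to 51947 after CLP. A lower signal in whole lung can mean fewer cells of a type or less RNA per cell, which cannot be told apart here.

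**Figure D1:**
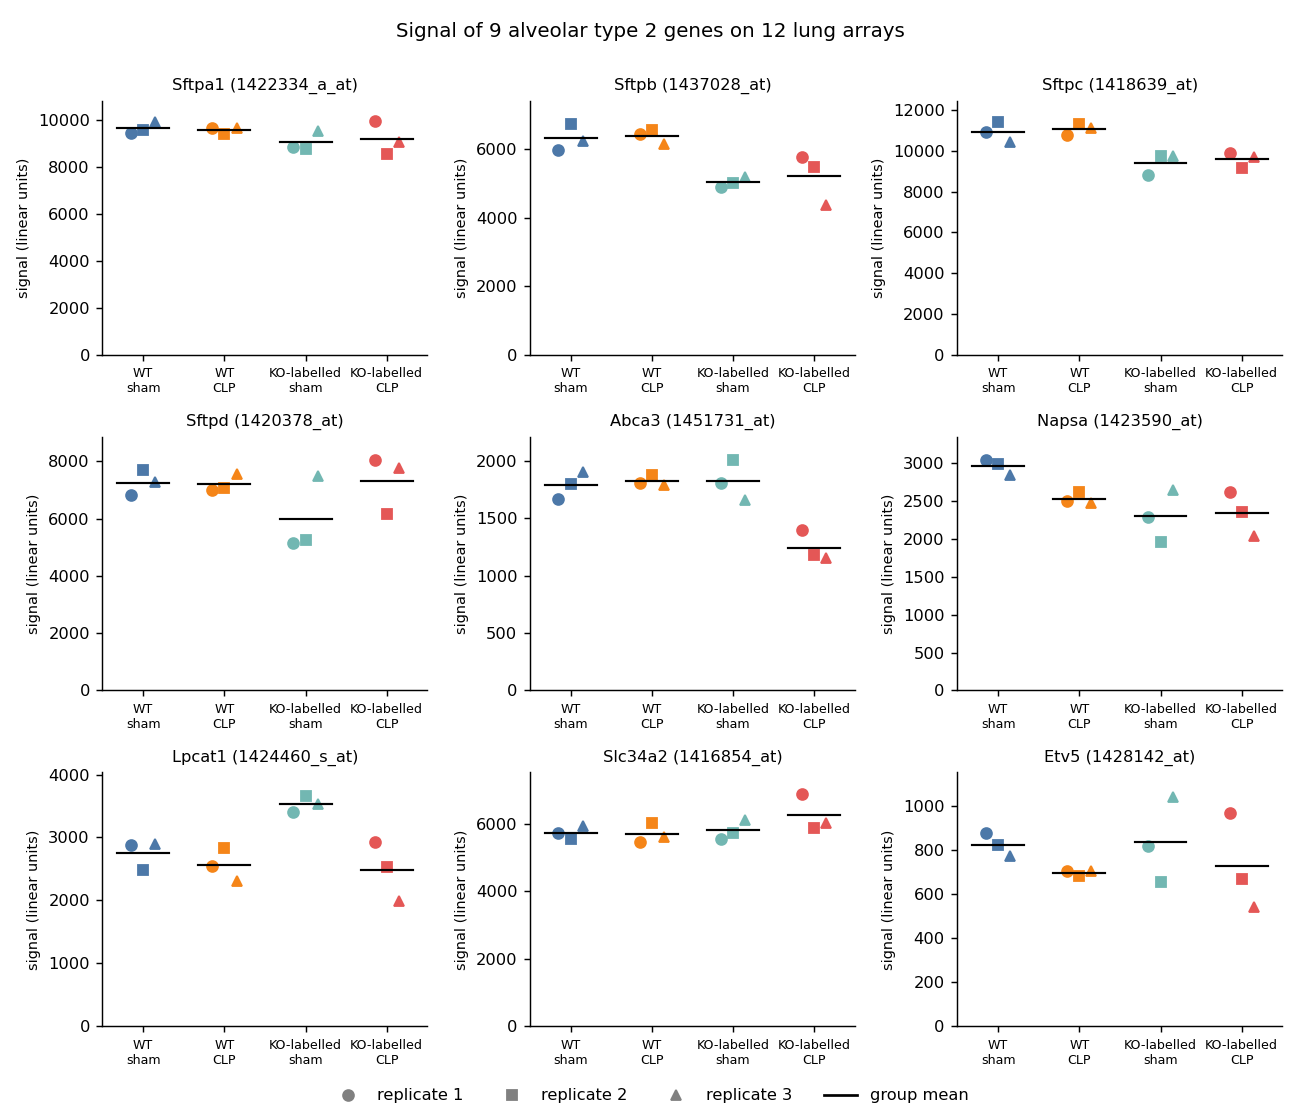
Signal (linear units, axes from 0) of the 9 measured genes on each of the 12 arrays. Markers stand for replicates 1 to 3 and black lines for group means; Abca3 is lower on the 3 knockout-labelled CLP arrays (1156 to 1393) than on the other 9 arrays (1661 to 2004), and the signals of Sftpa1 span a 1.17-fold range.

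In the wild-type lung 0 of the 9 genes passed the test of CLP against sham. Their differences from sham ran from -0.24 to 0.03 on the log2 scale with a median of -0.01. Over all genes tested 1.16% were called at an adjusted p under 0.05 and the median difference was -0.03. A difference here is that of the group means of log2(signal + 3.47), tested with limma over all probe sets with Benjamini-Hochberg adjustment. By this test 233 probe sets (0.948%) were called in wild-type CLP against sham, and 2084 had an unadjusted p under 0.05. The test pools the spread of the 4 groups. In a limma fit of only the 2 wild-type groups 1281 probe sets (5.21%) were called, Napsa among them (-0.22, adjusted p = 0.033). Napsa and Etv5 were the 2 genes whose wild-type arrays did not overlap between the surgeries. All genes tested gave 23.8% with no overlap, 12.9% with CLP lower.

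In the knockout-labelled lung, CLP came with lower signals of Abca3, the transporter that moves phospholipid into the lamellar body, and of Lpcat1, the acyltransferase that remodels phosphatidylcholine into its disaturated, surface-active form. These were the 2 of the 9 genes called as lower, and none was called as higher. Of all genes 31.3% were called in this comparison, 19.9% as lower and 11.4% as higher. The members' median difference was 0.03 and that of all genes -0.11, so a count of 2 of 9 lies near the background and is no result about the gene set. The 4 surfactant protein genes were not called in this comparison. In a limma fit of only the 2 knockout-labelled groups 2669 probe sets (10.9%) were called, against 7172 (29.2%) in the fit of all arrays. In that smaller fit Abca3 had an adjusted p of 0.032, and Lpcat1 lay at the threshold (0.05). Scaling bears on this comparison more than on the others: with each array centred on its median, the median over all probe sets tested moved from -0.12 to 0.10, and 5314 probe sets were called higher and 2236 lower, against 2553 and 4619 with the deposited scaling. Under that centring Abca3 stayed called (-0.33, adjusted p = 0.02), Lpcat1 did not (-0.30, adjusted p = 0.077), and Sftpa1, Sftpb, Sftpc, Sftpd and Slc34a2 were called as higher, by 0.24 to 0.53.

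Abca3 read 1671, 1795 and 1904 on the wild-type sham arrays and 1809.6, 1877 and 1785 on the wild-type CLP arrays. It read 1807, 2004 and 1661 in knockout-labelled sham and 1393, 1179.6 and 1156 in knockout-labelled CLP. The 3 knockout-labelled CLP arrays lay below the other 9, which overlapped with each other. Of all genes 24.5% were lower after CLP in knockout-labelled lung with no overlap between the surgeries. Here and below, such shares are for 1 group against another. They were not counted for 3 arrays against the other 9. The fall in knockout-labelled lung was -0.55 ± 0.09 (SE) on the log2 scale, a ratio of 0.682 (n = 3 and 3, limma adjusted p = 0.0014), and it was called with any single array left out (-0.64 to -0.48). Against wild type after CLP the difference was -0.56 ± 0.09 (adjusted p = 0.0012). In wild type the difference of CLP from sham was 0.03 ± 0.09 (adjusted p = 0.98).

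The difference between these responses, the interaction, was -0.58 ± 0.13 for Abca3 (95% interval -0.87 to -0.29, limma adjusted p = 0.034), and Abca3 was the 1 of 9 genes called there, where 4.98% of all genes were called and 3.13% with a difference below 0. That call did not hold when most of the arrays were left out singly. It was kept when array 3 of the knockout-labelled sham group (-0.65, adjusted p = 0.0085) or array 1 of the knockout-labelled CLP group (-0.67, adjusted p = 0.008) was left out, and lost without any of the other 10 arrays (adjusted p 0.056 to 0.1). It was also lost with arrays centred on their medians (-0.46, adjusted p = 0.069), with no filter (0.059) and with no intensity trend (0.077). Its direction was the same in all of these fits.

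A second probe set for Abca3 read 619.8, 644 and 643 after sham and 567, 578 and 615 after CLP in wild type, 721, 647 and 561 in knockout-labelled sham and 534, 503 and 459 in knockout-labelled CLP. Its knockout-labelled CLP arrays were again the lowest 3 of the 12. In wild type its CLP arrays also lay below its sham arrays, a split seen for 12.9% of all genes. It fell in knockout-labelled lung by 0.36 on the log2 scale (adjusted p = 0.023), and its correlation with the brighter probe set over the 12 arrays was 0.84. Its own interaction was -0.24 ± 0.15 and did not pass (adjusted p = 0.35). The remaining, dim probe set read 20.9 to 125, with the highest value on array 3 of knockout-labelled sham, and did not follow the others (r = -0.04 and -0.07). In wild type it read 37.9 to 49.7 after sham and 20.9 to 29.8 after CLP. With the mean of the 3 probe sets in place of the brightest, Abca3 still fell in knockout-labelled lung (-0.47, adjusted p = 0.016), while its interaction (-0.19, adjusted p = 0.56) and its difference from wild type after CLP (-0.09, adjusted p = 0.64) were no longer called. In wild type that mean gave a difference of CLP from sham of -0.28 (limma adjusted p = 0.52).

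Lpcat1 read 2879, 2481 and 2894 in wild-type sham and 2549, 2832 and 2312 in wild-type CLP. It read 3411, 3651 and 3526 in knockout-labelled sham and 2923, 2532 and 1996 in knockout-labelled CLP. The knockout-labelled sham arrays were the highest 3 of the 12, a split not counted over all genes. The knockout-labelled CLP arrays overlapped with both wild-type groups. The fall in knockout-labelled lung was -0.52 ± 0.12, a ratio of 0.696 (n = 3 and 3, limma adjusted p = 0.008), and it was called with any single array left out. The higher level in knockout-labelled sham than in wild-type sham, 0.36 ± 0.12, did not pass (adjusted p = 0.095). In wild type the difference of CLP from sham was -0.10 (adjusted p = 0.93). After CLP the labels differed by -0.06 ± 0.12 (adjusted p = 0.75), and the interaction of -0.42 ± 0.17 did not pass (adjusted p = 0.18).

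Lpcat1 has 3 bright probe sets, and their values over the 12 arrays correlated at 0.87 to 0.89. The other 2 fell after CLP in knockout-labelled lung by 0.42 (adjusted p = 0.015) and 0.43 (adjusted p = 0.03) on the log2 scale. They read 2454 and 1508 on array 3 of knockout-labelled sham, below the 3121 to 3186 and 1721 to 1938 of the other arrays of that group, whereas the brightest read 3526 there. On that array the probe sets of Lpcat1 therefore did not run together. In wild type the second brightest read 2370 to 2687 after sham and 2060 to 2358 after CLP, a lower level without overlap, as for 12.9% of all genes. With the mean of its probe sets Lpcat1 differed by -0.30 in wild type (limma adjusted p = 0.44) and by -0.43 in knockout-labelled lung (adjusted p = 0.022). The interaction was then -0.13 (adjusted p = 0.71).

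**Figure D2:**
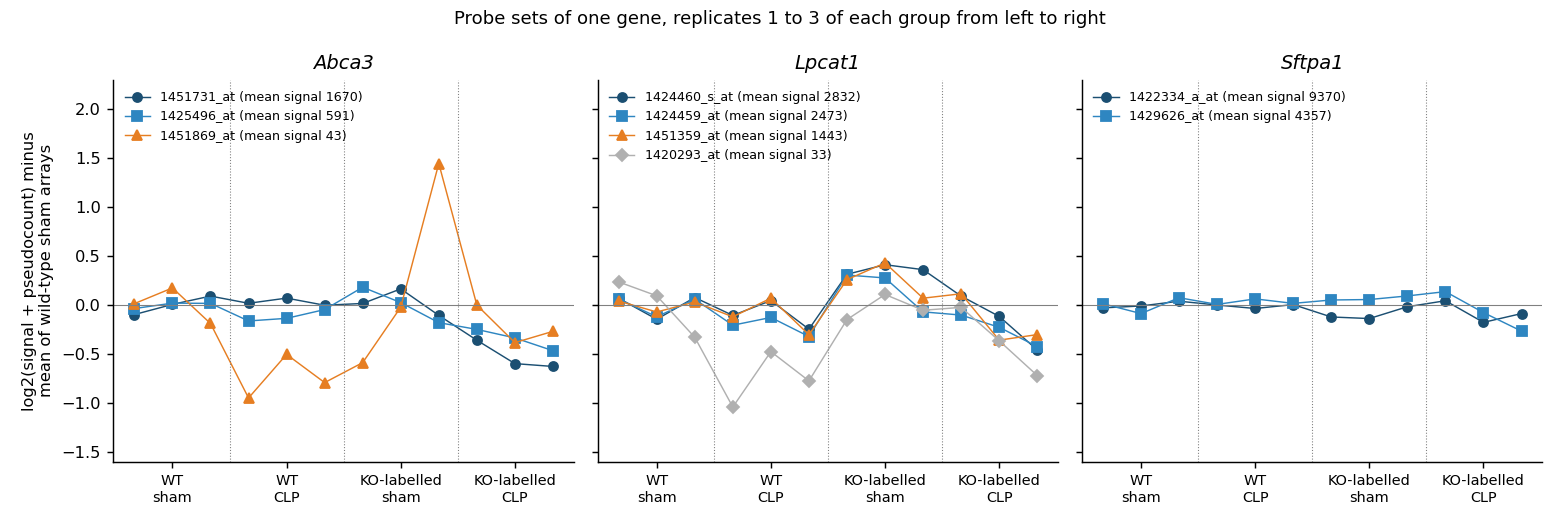
Log2(signal + pseudocount) of each tested probe set of Abca3, Lpcat1 and Sftpa1 on the 12 arrays, minus the mean of that probe set on wild-type sham arrays. Lines join the arrays of a probe set; the 2 brighter probe sets of Abca3 lie 0.25 to 0.63 below 0 on the knockout-labelled CLP arrays, the 3 bright ones of Lpcat1 lie from 0.46 below to 0.11 above 0 there, the dim Abca3 probe set (mean signal 43) peaks on the knockout-labelled sham array 3, and the Sftpa1 probe sets stay within 0.27 of the wild-type sham mean.

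Averaged over both labels, CLP against sham again called Abca3 (-0.26 ± 0.07, limma adjusted p = 0.017) and Lpcat1 (-0.31 ± 0.09, adjusted p = 0.025) as lower, 2 of 9 genes against 20.5% of all genes, 12.2% as lower. With arrays centred on their medians neither was called (Abca3 -0.10, adjusted p = 0.33; Lpcat1 -0.15, adjusted p = 0.24), whereas Sftpa1, Sftpb, Sftpc, Sftpd and Slc34a2 were called as higher, by 0.17 to 0.31. The average of Abca3 is that of 0.03 in wild type and -0.55 in knockout-labelled lung. The average of Lpcat1 was also no longer called without an intensity trend (adjusted p = 0.056), with array 2 of the knockout-labelled sham group left out (adjusted p = 0.055), arrays 1 (0.056) or 3 (0.068) of wild-type CLP, or arrays 1 (0.064) or 3 (0.061) of wild-type sham.

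The promoters of the 2 genes called as lower after CLP are printed, and those of Sftpb and Sftpa1 for contrast. Known regulators of type 2 genes have short binding motifs that can be looked for in these promoters. The sequences are the bases just before the RefSeq gene start in GRCm38.p6, on the plus strand, 5′ to 3′. The Abca3 window is chr17:24351773-24351920, that of Lpcat1 chr13:73466981-73467230, that of Sftpb chr6:72304360-72304609 and that of Sftpa1 chr14:41131538-41131787. Capitals mark matches, on either strand, to CTCAAG (the core bound by NKX2-1, the master regulator of lung epithelium), GGAAGT (the ETS core, the family of Etv5), TGTTTAC (the forkhead core of FOXA factors), TTNNGNAAT (a C/EBP core) and TATAAA (the TATA box); no 2 matches overlap.
Abca3: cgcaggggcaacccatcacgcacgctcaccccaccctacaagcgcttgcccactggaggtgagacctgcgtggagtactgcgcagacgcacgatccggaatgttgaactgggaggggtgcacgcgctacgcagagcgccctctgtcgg
Lpcat1: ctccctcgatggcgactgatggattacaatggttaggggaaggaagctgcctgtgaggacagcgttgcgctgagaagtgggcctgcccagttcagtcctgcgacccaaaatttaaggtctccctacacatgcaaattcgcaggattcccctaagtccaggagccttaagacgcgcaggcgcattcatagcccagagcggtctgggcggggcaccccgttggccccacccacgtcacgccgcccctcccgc
Sftpb: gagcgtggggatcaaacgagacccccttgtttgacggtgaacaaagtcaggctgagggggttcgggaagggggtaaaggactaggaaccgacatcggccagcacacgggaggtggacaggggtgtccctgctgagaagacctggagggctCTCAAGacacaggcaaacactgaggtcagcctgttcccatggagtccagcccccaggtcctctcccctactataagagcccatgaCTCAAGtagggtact
Sftpa1: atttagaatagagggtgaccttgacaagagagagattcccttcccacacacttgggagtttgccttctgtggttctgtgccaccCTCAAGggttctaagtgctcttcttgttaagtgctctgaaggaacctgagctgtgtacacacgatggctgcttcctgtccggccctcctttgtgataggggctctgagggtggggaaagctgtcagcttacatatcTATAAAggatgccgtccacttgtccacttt

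The Sftpb window holds CTCAAG at 2 places, starting 100 and 15 bases before its end. The Sftpa1 window holds CTCAAG 166 bases and TATAAA 30 bases before its end. The windows of Abca3 and Lpcat1, the genes called as lower after CLP, hold none of these letters, and neither does that of Slc34a2. The Lamp3 and Etv5 windows hold 1 FOXA core each. Of 32851 promoter windows of 250 bases, 13.3% hold CTCAAG, 19.7% GGAAGT, 3.2% TGTTTAC, 10.2% TTNNGNAAT and 12.4% TATAAA. For windows of 148 bases, the length printed for Abca3, the shares are 8.5%, 10.5%, 2.0%, 6.6% and 7.2%. A window of the table was matched for 7 of the 10 genes, and none was matched for Sftpc, Sftpd and Napsa. A match is a stretch of letters and not a measured binding site.

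Between the labels, Sftpb and Sftpc, the genes of the hydrophobic surfactant proteins, were lower in knockout-labelled lung after either surgery. After sham 2 of the 9 genes were called, both lower, where 8.76% of all genes were called and 3.89% as lower. After CLP 3 of the 9 genes were called, all lower, Abca3 beside them, where 31.8% of all genes were called and 18.7% as lower. The members' median difference was -0.09 after sham and -0.06 after CLP, and that of all genes 0.01 and -0.06. The count of 3 of 9 after CLP therefore lies near the background and is no result about the gene set.

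Sftpb, whose product organises the surfactant film and is needed for lamellar bodies to form, read 5988, 6748 and 6246 in wild-type sham and 6440.2, 6553 and 6164 in wild-type CLP. It read 4891, 5027 and 5185 in knockout-labelled sham and 5771, 5472 and 4369.6 in knockout-labelled CLP. All 6 knockout-labelled arrays lay below all 6 wild-type arrays. The arrays of 14.6% of all genes after sham, and of 28.7% after CLP, were lower in knockout-labelled lung with no overlap. The share of all genes for the 6 arrays against 6 was not counted. The difference was -0.33 ± 0.09 after sham (n = 3 and 3, limma adjusted p = 0.041). After CLP it was -0.30 ± 0.09 (n = 3 and 3, adjusted p = 0.023). The sham call was kept without arrays 1 or 3 of knockout-labelled CLP or array 3 of knockout-labelled sham, and lost without any of the other 9 arrays (adjusted p 0.05 to 0.16). The call after CLP was lost with array 3 of the knockout-labelled CLP group left out (-0.18, adjusted p = 0.069) or arrays 1 (0.066) or 2 (0.08) of wild-type CLP. With no filter the adjusted p was 0.09 after sham and 0.056 after CLP, and with no intensity trend 0.13 and 0.076. The sham call was also lost under quantile normalisation (0.066), and that after CLP in a fit of only the 2 groups compared (0.052).

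Sftpc, which encodes a small lipoprotein made in the adult lung by type 2 cells, read 10955, 11412 and 10420.2 in wild-type sham and 10799, 11349 and 11128 in wild-type CLP. It read 8797, 9735 and 9738 in knockout-labelled sham and 9915, 9162 and 9719 in knockout-labelled CLP. The 6 knockout-labelled arrays again lay below the 6 wild-type arrays, a split not counted over all genes. The difference was -0.21 ± 0.06 after sham (a ratio of 0.862, limma adjusted p = 0.037). After CLP it was -0.21 ± 0.06 (a ratio of 0.865, adjusted p = 0.017). The sham call was lost without any of 8 arrays (adjusted p 0.05 to 0.14), and the call after CLP without array 2 of knockout-labelled CLP (0.066) or arrays 2 (0.067) or 3 (0.05) of wild-type CLP. Under quantile normalisation the difference after CLP was -0.02 (adjusted p = 0.78), and with arrays centred on their medians -0.16 (0.051). With no filter the adjusted p was 0.15 after sham and 0.083 after CLP, and with no intensity trend 0.21 and 0.12. The sham call was also lost with the replicate number as a block (adjusted p = 0.056) and in a fit of only the 2 groups compared (0.11). A second Sftpc probe set read 1.98 to 14.3, did not pass the filter and says nothing about the gene.

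Sftpa1 and Sftpd encode the collectins. Sftpa1 read 9457, 9585 and 9915 after sham and 9649.7, 9416 and 9679 after CLP in wild type, 8867, 8768 and 9534 in knockout-labelled sham and 9947, 8534 and 9083 in knockout-labelled CLP. The 4 groups overlapped, and no comparison called it; its difference between the labels was -0.09 ± 0.06 after sham (limma adjusted p = 0.39). The dimmer of its 2 probe sets, with a mean signal of 4357, ranged 1.32-fold against 1.17-fold, and the correlation between them over the 12 arrays was 0.38.

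Sftpd read 6812, 7704 and 7281 in wild-type sham and 7012, 7062 and 7570.3 in wild-type CLP. It read 5165, 5254 and 7506 in knockout-labelled sham and 8067, 6150.2 and 7779 in knockout-labelled CLP. Arrays 1 and 2 of knockout-labelled sham were the lowest of all 12, and array 3 lay with the wild type. The difference of CLP from sham in knockout-labelled lung was 0.31 ± 0.13 and did not pass (limma adjusted p = 0.1). With array 3 of the knockout-labelled sham group left out it was 0.48 and was called (adjusted p = 0.003), as was the difference between the labels after sham (-0.48, adjusted p = 0.0091, against -0.30 and 0.19 with it). Without array 2 of knockout-labelled CLP the difference of CLP from sham was 0.43 and called too (adjusted p = 0.042). On array 3 of knockout-labelled sham the alveolar macrophage markers stood at 9794 and the general epithelial markers at 10101, against 13464 and 13522 on the other arrays of its group; their part in these values was not tested.

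Napsa, the aspartic protease napsin A that trims the SP-B and SP-C precursors, read 3052, 2987 and 2846 in wild-type sham and 2503, 2628 and 2477 in wild-type CLP. It read 2290.3, 1963 and 2655 in knockout-labelled sham and 2625, 2362 and 2037 in knockout-labelled CLP. The wild-type sham arrays were the highest 3 of the 12, a split not counted over all genes. Neither the difference of CLP from sham in wild type (-0.22 ± 0.11, limma adjusted p = 0.64) nor that between the labels after sham (-0.37 ± 0.11, adjusted p = 0.055) passed. The latter was called when array 3 of the knockout-labelled sham group was left out (-0.48, adjusted p = 0.0098) or without arrays 1 (0.038) or 3 (0.031) of knockout-labelled CLP.

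Slc34a2, the sodium-phosphate cotransporter that type 2 cells use to take up phosphate freed from surfactant lipid, read 5725, 5562 and 5932 after sham and 5450.1, 6009.6 and 5607 after CLP in wild type, 5560.1, 5731 and 6117 in knockout-labelled sham and 6892, 5879.9 and 6011 in knockout-labelled CLP. Its groups overlapped, with the single highest value on array 1 of knockout-labelled CLP. No comparison called it, and its 95% interval in knockout-labelled CLP against sham was -0.05 to 0.26.

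Etv5, a transcription factor of the ETS family that acts downstream of growth factor signals to keep type 2 cells in their state, read 876, 824 and 774 in wild-type sham and 704, 681 and 707 in wild-type CLP. It read 818, 654 and 1042 in knockout-labelled sham and 969.6, 668 and 543 in knockout-labelled CLP. The wild-type arrays did not overlap between the surgeries, whereas the knockout-labelled arrays spread over the whole range. The difference in wild type was -0.24 ± 0.19 (limma adjusted p = 0.85), in a fit that shares 1 estimate of spread over the 4 groups. Its other 2 probe sets followed the first over the 12 arrays (r = 0.86 to 0.89).

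**Figure D3:**
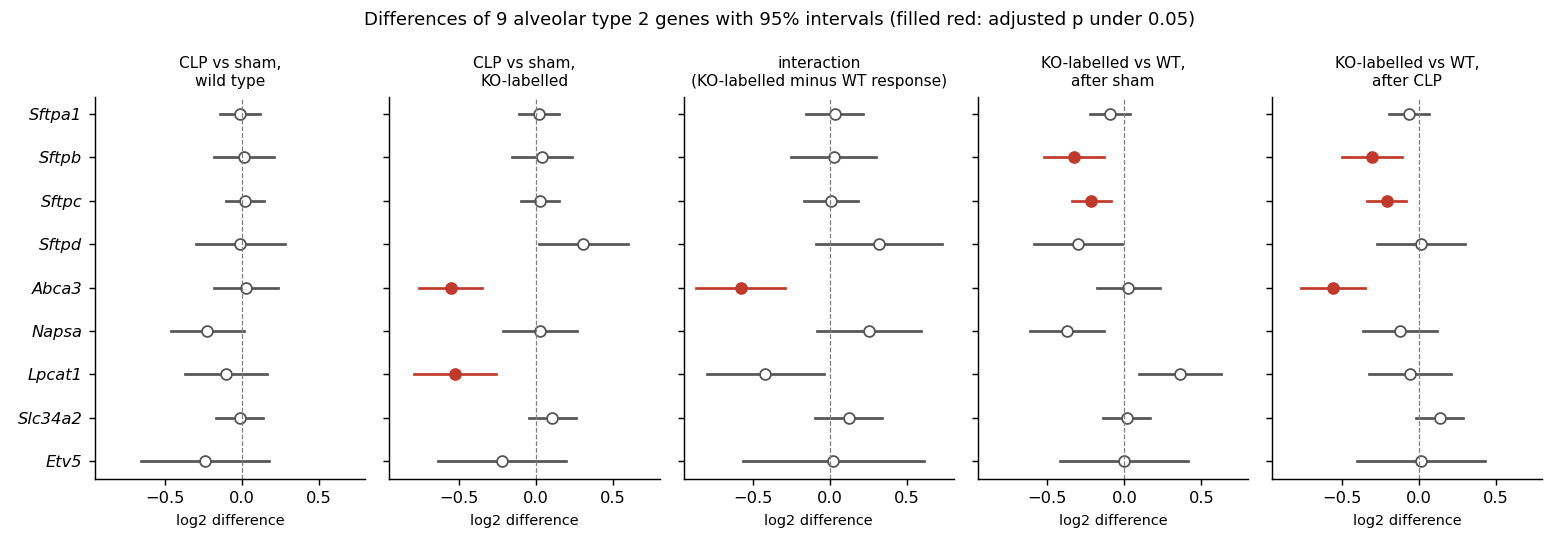
Log2 differences of the 9 genes in 5 comparisons, with 95% intervals from the limma fit; filled red points have an adjusted p under 0.05. Abca3 and Lpcat1 are called in knockout-labelled CLP against sham (-0.55 and -0.52), Abca3 in the interaction (-0.58), and Sftpb and Sftpc between the labels after either surgery.

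5 of these genes were among the brightest on the arrays. They were Sftpc, Sftpa1, Sftpd, Slc34a2 and Sftpb, all within the 225 probe sets of the brightest 0.5%, with mean signals of at least 5068. Sftpc stood at 66.9% to 80.5% of the highest signal of its array and Sftpa1 at 63.0% to 74.0%. The sources used here do not give the signal at which the scanner saturates. Over the brightest 0.5% the median SD within groups was 0.08 on the log2 scale, against 0.23 over all probe sets tested. In knockout-labelled CLP against sham 14.2% of the brightest probe sets were called, against 29.2% of all probe sets, and the median size of their differences was 0.08 against 0.32. Between the labels, 10.7% of the brightest were called after sham, against 8.34% of all probe sets, and 20.0% against 29.5% after CLP. In wild-type CLP against sham the shares were 1.78% and 0.948%.

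The same gene could be read at lower brightness for 26 genes of the brightest class that had a dimmer probe set with a mean signal of at least 1000. The SD of the bright probe set over the 12 arrays was a median of 0.547 times that of the dimmer, and it was the smaller in 24 of the 26. Among 82 genes whose brightest probe set had a mean signal of 2500 or more but lay outside that class, the median was 0.722 and the bright one was smaller in 62. The part of brightness in the differences of Sftpb and Sftpc was not tested.

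**Figure D4:**
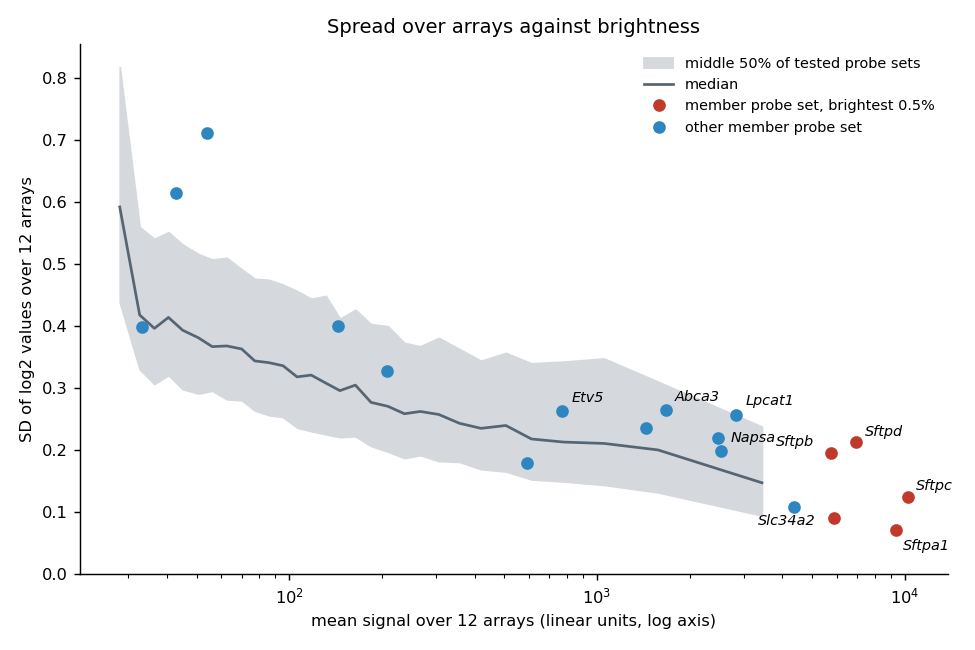
SD of log2 values over the 12 arrays against mean signal (log axis). The line and band give the median and the middle 50% of the probe sets tested in 30 bins of signal, and points are the probe sets of the 9 genes, red where they belong to the brightest 0.5%; the bin medians fall from 0.59 at the dim end to 0.15 at the bright end, and Sftpa1 has the smallest SD of the 9 genes at 0.07.

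The 9 genes varied together only in part. Over the 36 pairs the correlation of log2 values over the 12 arrays ran from -0.56 (Sftpd and Lpcat1) to 0.81 (Sftpb and Sftpc), with a median of 0.32, and 28 were above 0. Deviations from the group means, which leave the groups out, correlated at -0.16 to 0.94 with a median of 0.47, and 33 of 36 pairs were above 0. The highest was that of Napsa and Etv5. These values are descriptions over 12 arrays that share scaling and RNA preparation.

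By the same measure over the 12 arrays, the genes most like Abca3 among 11850 others were Cd99l2 (r = 0.98), Bnc2 (0.98) and Mall (0.97). Those most like Lpcat1 were Pgap4 (0.94), Gramd1c (0.94) and Ints7 (0.93), and those most like Sftpc were Cttnbp2nl (0.97), Lhfp (0.96) and Mcf2l (0.94). Sftpb was most like Ankrd44 (0.95), Sftpd like Pank3 (0.93), Sftpa1 like Usp1 (0.92), Napsa like Tpp1 (0.92), Slc34a2 like Erbb3 (0.93) and Etv5 like Osbpl2 (0.91). The 9 genes themselves were not among those searched.

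Genes that act on surfactant around these members were read from lists written by name. Of 11 genes of surfactant processing and turnover, none was called in wild-type CLP against sham, where 1.16% of all genes were called. In knockout-labelled CLP against sham 4 rose and 2 fell, with a list median of 0.20. Here and below, counts of genes that rose or fell are counts of called genes. All genes tested gave 31.3% called there, 11.4% as higher and 19.9% as lower. Under quantile normalisation 3 of the list were called as higher and 2 as lower, and with arrays centred on their medians 5 and 1. The receptor chains for GM-CSF, the cytokine that alveolar macrophages need to break surfactant down, rose: Csf2rb by 1.86 ± 0.27 (limma adjusted p = 0.00062), Csf2rb2 by 1.68 ± 0.27 and Csf2ra by 1.02 ± 0.17 on the log2 scale. Csf2rb read 251, 234 and 475 in knockout-labelled sham and 801, 1059 and 1605 in knockout-labelled CLP, and its highest sham value was on array 3. The receptors are also made by macrophages and neutrophils, whose marker sums moved with them: neutrophil markers in knockout-labelled lung stood at 10972 to 26964 after sham and 45309 to 50351 after CLP. Their part in the rise was not tested.

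Among the ubiquitin ligases that act on SP-C and on sodium channels, Nedd4 fell by 0.55 on the log2 scale in knockout-labelled lung (limma adjusted p = 0.00053) and Nedd4l rose by 0.41 (adjusted p = 0.019). Nedd4 read 1952, 1844 and 1803 in knockout-labelled sham and 1391, 1268 and 1164 in knockout-labelled CLP, against 1598 to 1771 on wild-type arrays. Adgrf5, the receptor that restrains surfactant pool size, fell by 0.25 (adjusted p = 0.02), but not with arrays centred on their medians (-0.03, adjusted p = 0.79). Without array 2 of knockout-labelled CLP the calls of Nedd4l and Adgrf5 were lost, and that of Adgrf5 also without array 2 of knockout-labelled sham. The cathepsin Ctsh, which helps process SP-B and SP-C, gave 0.20 ± 0.13 (adjusted p = 0.26).

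Of 25 further genes of surfactant lipid synthesis and the lamellar body, none was called in wild-type CLP. In knockout-labelled CLP 2 rose and 3 fell, with a median of -0.17, where 31.3% of all genes were called. Elovl6, a fatty acid elongase, rose by 1.36 ± 0.25 (limma adjusted p = 0.0019) and Pgs1, of phosphatidylglycerol synthesis, by 0.69 ± 0.13 (adjusted p = 0.0022). Acly, which supplies acetyl-CoA for fatty acids, fell by 0.47 ± 0.09 on the log2 scale (adjusted p = 0.0027), and Rab3d, a GTPase of secretory vesicles, by 0.72 ± 0.17 (adjusted p = 0.008). Rab3d read 342, 348 and 338 in knockout-labelled sham and 269, 221 and 149 in knockout-labelled CLP, against 247 to 288 in wild type. With arrays centred on their medians the counts of this list were 6 up and 1 down and its median 0.06, so the balance of rises and falls turned with the scaling.

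Of 16 transcription factors and signal genes of type 2 cells other than Etv5, Cebpd and Spry4 rose in the wild type after CLP, and in knockout-labelled lung 4 rose and 4 fell, where 31.3% of all genes were called. With arrays centred on their medians 7 were called as higher and 3 as lower there, and the list median was 0.22 against -0.01. Cebpd, an acute-phase C/EBP factor, read 1019.7 to 1585 in wild-type sham and 2909 to 3103 in wild-type CLP, a rise of 1.28 ± 0.21 (limma adjusted p = 0.013). In knockout-labelled lung it read 843 to 1401 after sham and 3203 to 5057 after CLP, a rise of 2.0 ± 0.21 (adjusted p = 8.7e-05). Spry4, a feedback inhibitor of receptor tyrosine kinase signals, rose by 1.90 ± 0.31 in wild type (adjusted p = 0.014) and by 2.49 ± 0.31 in knockout-labelled lung. In wild type both calls were lost without any of arrays 1 or 3 of sham or any CLP array (highest adjusted p 0.09), with no change of direction.

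Stat3 rose by 0.83 and Elf3 by 0.78 in knockout-labelled lung, and 4 factors of lung epithelial development fell: Foxa2 by 0.87 (limma adjusted p = 0.0012), Nfib by 0.80 (adjusted p = 0.0016), Grhl2 by 0.60 and Gata6 by 0.54, all on the log2 scale. In knockout-labelled lung Foxa2 read 319.9 to 433 after sham and 187 to 215 after CLP. In wild type it read 312 to 409 after sham and 210.4 to 259 after CLP, with no overlap, a difference of -0.58 that did not pass (adjusted p = 0.1). The response of Nfib to CLP differed between the labels (interaction -0.79, limma adjusted p = 0.045), almost the size of its fall in knockout-labelled lung. That call was lost without any of 10 of the arrays (adjusted p up to 0.12). The call of Elf3 was lost without array 2 of knockout-labelled CLP (limma adjusted p = 0.064), and that of Gata6 without array 3 of that group or arrays 1 or 2 of knockout-labelled sham (highest adjusted p 0.074) or with arrays centred on their medians (-0.32, adjusted p = 0.15). No value is given for Nkx2-1, which had no probe set that passed.

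Of 22 other type 2 markers, none was called in wild-type CLP. In knockout-labelled CLP 4 rose and 2 fell, where 31.3% of all genes were called, and the list median was 0.03. With arrays centred on their medians the counts were 7 higher and 1 lower and the median 0.25, and under quantile normalisation 4 and 4 and -0.06. The acute-phase glycoprotein Lrg1 rose by 1.92 ± 0.20 (limma adjusted p = 8.0e-05), the alarmin Il33 by 1.09 ± 0.21 and the chitinase-like Chil1 by 0.48 ± 0.07 on the log2 scale, and Bex2 fell by 0.95 ± 0.15. Lrg1 read 649, 648 and 1085 in knockout-labelled sham and 2260.2, 3025 and 3646 in knockout-labelled CLP, and its interaction was 1.43 ± 0.28 (adjusted p = 0.022), a call lost without any of 7 arrays (adjusted p up to 0.07). Between the labels after sham, Acoxl, a peroxisomal oxidase-like gene, was higher by 2.70 ± 0.36 (adjusted p = 0.00047) and S100g, a calcium-binding protein, lower by 0.86 ± 0.17. Acoxl read 83.5 to 100.3 on wild-type arrays and 208 to 867 on knockout-labelled arrays, with the lowest values of its groups on their array 3. Between the labels after CLP, 5 of the 22 were called as higher and 5 as lower, where 31.8% of all genes were called.

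Markers of other lung cells were read in the same way. Of 18 alveolar type 1 markers, 1 rose and 4 fell in knockout-labelled CLP, against 31.3% of all genes called, led by Rtkn2 (-1.14 ± 0.17, limma adjusted p = 0.00069), while Hopx gave 0.05 ± 0.06. The counts turned with the scaling, to 0 higher and 7 lower under quantile normalisation (list median -0.27) and 2 higher and 1 lower with arrays centred on their medians (0.06). Of 11 general epithelial markers none was called there, and 5 were without array 3 of knockout-labelled sham, where 35.7% of all probe sets were called against 29.2% with it. The summed general epithelial signal was 12529 to 13696 in wild-type sham, 12882 to 13240 in wild-type CLP, and, in knockout-labelled lung, 10101 to 13522 after sham and 9722 to 12650 after CLP. Within knockout-labelled CLP it was lowest on array 3, where Abca3, Lpcat1, Sftpb, Napsa and Etv5 were also lowest. Sftpa1, Sftpc, Sftpd and Slc34a2 were lowest on array 2 of that group instead. Endothelial markers summed to 14459 to 15268 on wild-type arrays and 10613 to 12491 on knockout-labelled arrays, with no overlap, as for Sftpb and Sftpc. Cardiac muscle markers summed to 9359 to 14435 in knockout-labelled sham, against 3258 to 4053 on wild-type arrays and 4020 to 7414 in knockout-labelled CLP. The part of these other cells in the values of the type 2 genes was not tested.

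**Figure D5:**
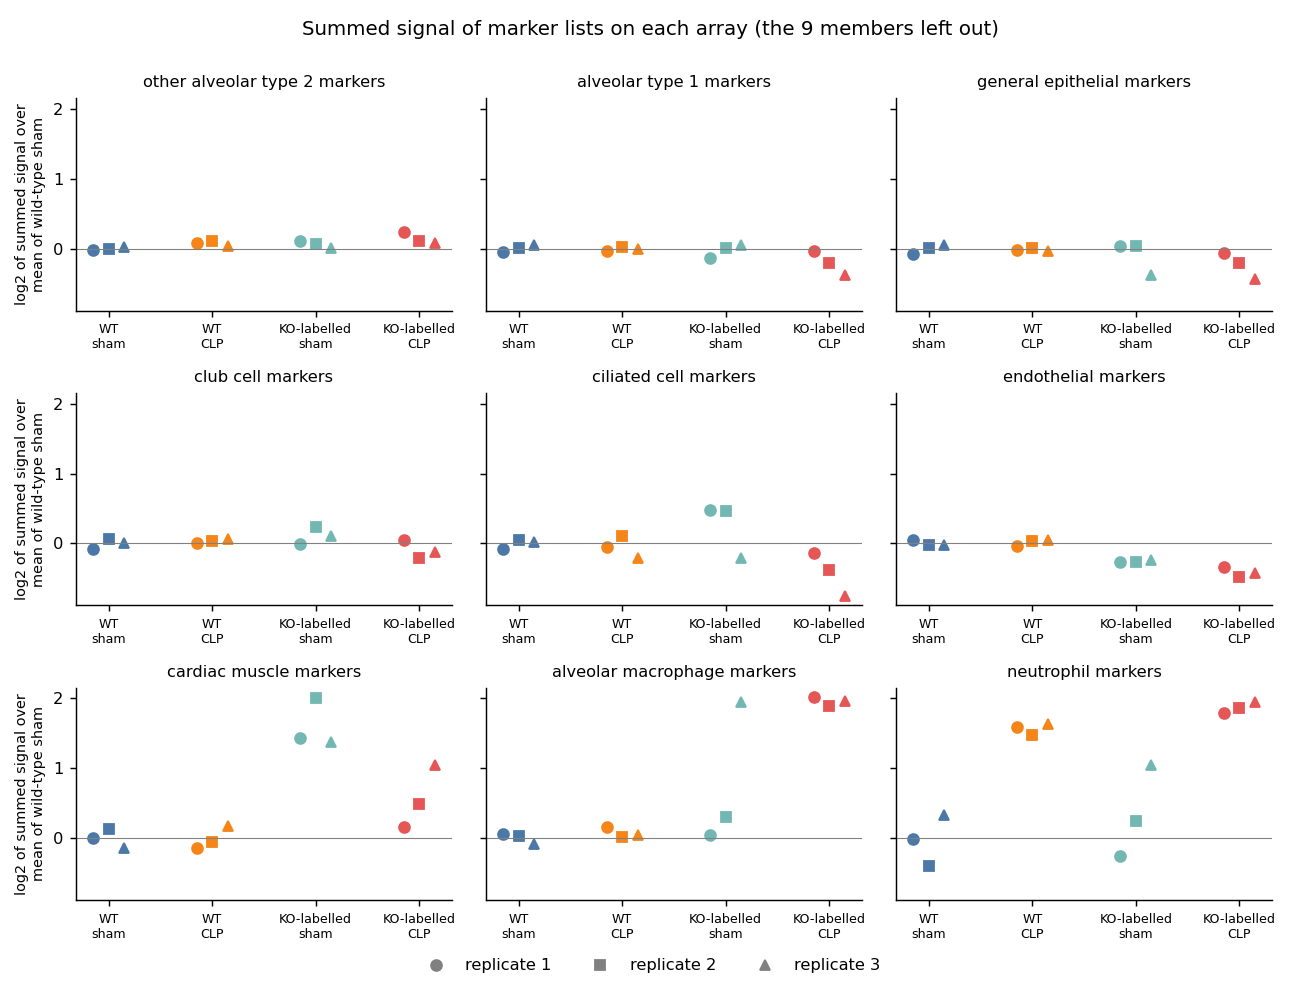
Log2 of the summed signal of each marker list on each array over the mean of the wild-type sham arrays; the 9 type 2 genes are left out of the lists. The other type 2 markers sum to 43387 to 44798 in wild-type sham, lie above that range in wild-type CLP (45315 to 47768) and reach 51947 in knockout-labelled CLP. Macrophage, neutrophil and cardiac muscle markers spread more widely over the arrays. Array 3 of knockout-labelled sham (triangle) lies with the knockout-labelled CLP arrays for macrophage markers.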

How the data were processed

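Total RNA of 12 lung samples was measured on 12 Affymetrix arrays, 3 in each of 4 groups taken from the sample titles. The deposited values are intensities, 1 linear signal per probe set and array, and GCOS, MAS5 and Affymetrix Expression Console are named, without versions, per the submitters' processing notes. The mean signal with 2% trimmed at each end was 150.0 on every array, so the authors scaled each array to a common level; no other normalisation is given in the sources used here. Scanner files were not used here, so the background correction could not be redone.

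From these signals, log2(signal + 3.47) was computed, the pseudocount being 10% of the median of array medians, which makes changes of dim probe sets smaller. After 64 control probe sets were left out, 24574 of 45037 probe sets passed a filter of a signal above the array median on at least 3 arrays. Of the 45037, 34945 carry 1 gene symbol in the platform annotation, 932 several and 9160 none; 34741 were matched to the RefSeq table of GRCm38.p6, and only those with 1 symbol name a gene. The test was that of limma 3.58.1 (R 4.3.3), with 4 group means over all 12 arrays, an intensity trend and Benjamini-Hochberg adjustment over all probe sets tested, in 6 contrasts, with a threshold of 0.05 on the adjusted p. Every adjusted p in the text comes from this limma fit or its stated alternatives. The procedure was tested on simulated data. A value after ± is a standard error of the fit unless another is named. The 3 arrays a group limit the precision; depth does not apply.

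The members and the 12 gene lists were chosen with earlier results of these data known. All members were named, on every array; from the lists, the called genes with the smallest p, up to 4 a contrast, and up to 2 uncalled genes, while any gene of the processing and transcription factor lists could be named. Alternatives were quantile normalisation, centring on array medians, a pseudocount of 17.3, no filter or a filter of 9 arrays, no trend, array weights, a replicate block, fits of only the 2 groups compared, averaging over the probe sets of a gene, and leaving out each array. Figures were drawn with matplotlib 3.10.9 in Python 3.11.15.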

Additional observations from a re-analysis of the deposited data

Results flagged for a closer look

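The response of Abca3 to CLP differed between the genotype labels by a test of the difference itself: the interaction was -0.58 on the log2 scale (limma adjusted p = 0.034), from 0.03 in wild type and -0.55 in knockout-labelled lung. On the brightest probe set all 3 knockout-labelled CLP arrays lay below the 3 knockout-labelled sham arrays, a split seen for 24.5% of all genes. The wild-type groups overlapped there, but on both dimmer probe sets the wild-type CLP arrays lay below the wild-type sham arrays. The mean of the probe sets gave -0.28 in wild type (limma adjusted p = 0.52). The call of the interaction was lost in 10 of the 12 fits that left out 1 array (adjusted p 0.056 to 0.1). The interaction of the dimmer Abca3 probe set that ran with the brightest was -0.24 (adjusted p = 0.35).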

How the results depend on the processing

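Of 54 differences of the 9 genes in 6 contrasts, 10 were called. Under all alternatives these 10 gave 217 values, none with a changed sign and 155 still called. The 44 uncalled differences gave 953 values, of which 30 became called, 11 of them with arrays centred on their medians; 31 of these differences changed sign in 88 values, none called there and none larger than 0.28 in size. The number of the 9 genes called moved by over 1.5 times as follows. With arrays centred on their medians it was 6 in knockout-labelled CLP against sham (2 as reported), 5 in the average of CLP against sham (2) and 0 in the interaction (1). The 5 were Sftpa1, Sftpb, Sftpc, Sftpd and Slc34a2, all higher, while Abca3 and Lpcat1, lower and called as reported, were not called. Without an intensity trend it was 1 in the average, 1 between the labels after CLP (3), 0 between them after sham (2) and 0 in the interaction; without a filter it was 1 after CLP, 0 after sham and 0 in the interaction. With array weights it was 5 after sham and 2 in the interaction, with quantile normalisation 1 after sham, with probe sets of a gene averaged 0 in the interaction, and in a fit of only the 2 groups compared 1 in wild-type CLP against sham (0), where Napsa had an adjusted p of 0.033. The cause was not tested.

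Leaving out 1 array gave 1 to 3 genes in the average, 2 to 3 in knockout-labelled CLP against sham, 1 to 3 between the labels after CLP, 0 to 4 after sham, 0 to 0 in wild type and 0 to 2 in the interaction. Of 1560 list counts under alternatives, 1209 stayed within 1.5 times and 351 did not. Same-numbered samples of different groups did not deviate together (18 pairs, r -0.10 to 0.12, median 0.01), nor did differently numbered ones (r -0.14 to 0.15). This check showed no pairing by number, but it cannot exclude a small shared effect. The replicate block ended the call of Sftpc between the labels after sham (limma adjusted p = 0.056), which left 1 gene called there. It left the same number as reported in the other 5 contrasts.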

Other observations

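Airway and other cell markers moved in knockout-labelled CLP against sham beside the type 2 genes, in a comparison that called 31.3% of all genes, 19.9% as lower and 11.4% as higher. Of 10 ciliated cell markers 5 fell and none rose, led by the tektin Tekt4 (-1.52 ± 0.22, limma adjusted p = 0.00053) and Ccdc39 (-1.53 ± 0.23), a protein of the ciliary axoneme. In knockout-labelled sham 4 of the 10 were higher than in wild-type sham (8.76% of all genes called between these groups). Of 11 club cell markers 3 fell, led by Cckar (-1.62 ± 0.20, adjusted p = 0.00022), while the secretoglobin Scgb1a1 gave -0.02 ± 0.06. The club cell counts turned with the scaling, to 0 higher and 6 lower under quantile normalisation and 2 higher and 1 lower with arrays centred on their medians. Of 11 neutrophil markers 9 rose, led by the granule genes Ngp (4.54 ± 0.19) and Camp (5.54 ± 0.37), and 8 rose in wild-type CLP (1.16% of all genes called). Of 9 alveolar macrophage markers 4 rose, of 8 endothelial markers 4 fell, led by the receptor Kdr (-1.27 ± 0.24), with 3 higher and 2 lower under that centring, and of 8 cardiac muscle markers 7 fell. After sham 7 of these 8 were higher in knockout-labelled than in wild-type lung, a comparison that called 8.76% of all genes.

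Without array 3 of knockout-labelled sham, 35.7% of all probe sets were called in knockout-labelled CLP against sham, against 29.2% with it. The counts called there were 9 for ciliated, 5 for club, 11 for neutrophil, 9 for macrophage, 3 for endothelial and 7 for cardiac muscle markers. They were 8 for surfactant processing and turnover, 7 for surfactant lipid synthesis, 10 for the transcription factors, 10 for the other type 2 markers and 5 for type 1 markers, and 3 of the 9 type 2 genes were called.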
